A study of Mus musculus with 12 samples.

Results

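The genes described here encode 10 proteins of synaptic vesicles and of the machinery that empties them: the synapsins Syn1 and Syn2, the vesicle membrane protein Syp (synaptophysin), the calcium sensor Syt1 (synaptotagmin 1), the SNARE proteins Snap25, Stx3 (syntaxin 3) and Vamp2 (synaptobrevin 2), the complexins Cplx3 and Cplx4, and the vesicular glutamate transporter Slc17a7 (VGLUT1). They were chosen by symbol, and each was matched through its Ensembl identifier to 1 row of a gene table of 53707 genes. All 10 were found and all 10 passed the filter on low counts, which kept 21061 genes. RNA was measured by RNA-seq in retinal explants, which are whole retinas dissected free of the retinal pigment epithelium and kept in Neurobasal-A medium with B27 and N2 supplements. The donors were wild-type C57BL/6J mice at postnatal day 28. Explants were held for 48 hours with either 5 mM or 25 mM glucose and carried no transgene or deleted allele. Each glucose concentration had 3 biological replicates, and each biological replicate had 2 technical replicates that the labels place in batch 1 and batch 2, giving 12 libraries. The labels do not say whether biological replicates came from different animals, so a p-value here measures the spread between these samples, part of which may be technical. The question asked was which of these genes had a different RNA level at 25 mM than at 5 mM glucose.

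Synaptic vesicles are filled with transmitter by a transporter that uses a proton gradient, are held near the membrane by synapsins, and fuse when a vesicle SNARE zips together with SNAREs of the plasma membrane. Synaptotagmin triggers that fusion on calcium entry, and complexins clamp or promote it by binding the assembled SNARE complex. Photoreceptors and bipolar cells of the retina release glutamate continuously at ribbon synapses. These synapses use syntaxin 3 and complexins 3 and 4 in place of complexins 1 and 2, and they lack synapsins. Amacrine cells, the inhibitory interneurons of the inner retina, have conventional synapses with synapsins, other syntaxins and complexins 1 and 2, and many of them also hold complexin 3. The 10 genes therefore span both kinds of retinal synapse.

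The depth behind each value was large. Single libraries held between 14815285 and 36692484 estimated counts, and the summed technical replicates between 37944826 and 60098862. The labels do not say whether a technical replicate is a second explant, extraction or library. Technical replicates of 1 biological replicate differed well beyond counting error: over genes, the chi-square per gene between them had a median of 57.6 (range 40.5 to 131 over 6 pairs), against 96.1 (24.2 to 204) for 24 pairs of different biological replicates of 1 concentration. The ranges overlapped: pairs between 5 mM replicates 2 and 3 had 24.2 to 64.2, against 55.9 and 42.6 for their own technical pairs. Biological pairs with 5 mM replicate 1 had 104 to 204. No sample was a copy of another by this measure. The mitochondrial share of counts ranged from 5.91% to 15.4% and was highest in the first technical replicate of 25 mM replicate 2. Rod markers were abundant in every sample, and Rpe65, Pmel and Mlana of the pigment epithelium did not pass the filter on low counts.

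Levels are given for each biological replicate as CPM, counts scaled to a common library size with TMM factors. Between 5 mM and 25 mM glucose, Cplx4 rose and Syn1 fell, and the other 8 genes did not pass an FDR of 0.05 in edgeR's quasi-likelihood test, their FDR lying between 0.0794 and 0.919. Of all genes tested, 1.98% passed that threshold, 1.47% being higher at 25 mM and 0.513% lower. At the stricter threshold of an FDR under 0.01 with a fold change over 2, the edgeR test called 0 of the 10 genes and 0% of all genes (0 of 21061), although 6052 genes had an unadjusted p under 0.05 and DESeq2 called 1387 at the same threshold. Of the 10 genes, 3 had an unadjusted p under 0.05. Signs were mixed, with 3 genes higher and 7 lower by estimate, and the median log2 fold change was -0.08 against -0.01 over all genes. The 3 replicates of 25 mM glucose did not overlap those of 5 mM for 4 of the 10 genes, Cplx4 and Stx3 being higher and Syn1 and Vamp2 lower, while 31.8% of all genes tested had such separate groups. Over single libraries, Cplx4 alone of the 10 had groups of 6 that did not overlap, as did 4.72% of the genes tested on 12 libraries.

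**Figure D1:**
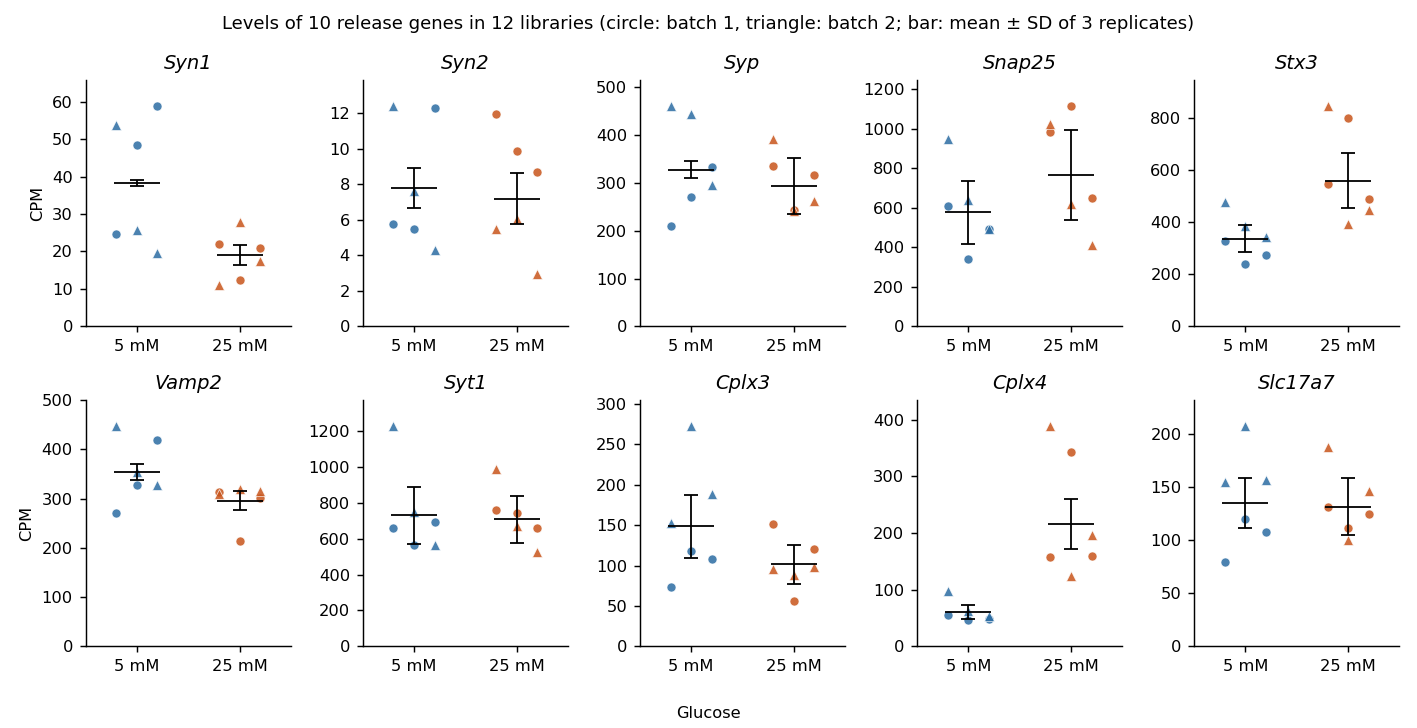
CPM of each of the 10 genes (vertical axes, each starting at 0) in the 6 libraries at 5 mM glucose (blue) and the 6 at 25 mM (orange), with biological replicates side by side, circles for batch 1, triangles for batch 2, and the mean ± SD of 3 biological replicates in black. Cplx4 is the only gene whose lowest library at 25 mM (124 CPM) lies above its highest at 5 mM (97.8 CPM), and the Syn1 libraries at 5 mM spread from 19.6 to 58.8 CPM although the 3 sums lie close together.

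The largest change among the 10 genes was that of the complexin gene Cplx4. Cplx4 (ENSMUSG00000024519, chr18:65955722-65970237, minus strand, GRCm38), a complexin of photoreceptor ribbon synapses, had 74.5, 54.1 and 52.2 CPM in the 3 replicates at 5 mM glucose. At 25 mM it had 265, 201 and 180 CPM. Every replicate at 25 mM was thus above every replicate at 5 mM, and replicate 1 was the highest of its group at both concentrations. The means were 60.3 ± 12.3 and 215 ± 44.1 CPM (SD, n = 3 each), a 3.57-fold difference (log2 fold change 1.84, SE 0.22, edgeR FDR 0.0238) that ranked 24 by p among all genes. Batch 1 by itself gave 2.09 and batch 2 gave 1.70 on the log2 scale, and adjusting for base composition (GC content) and length of the transcripts gave 1.75 (edgeR FDR 0.00477). The call was lost in batch 2 alone (edgeR FDR 0.391), where 0 of all genes were called, and when replicate 2 or 3 at 5 mM, or replicate 1 or 2 at 25 mM, was left out (edgeR FDR 0.109, 0.159, 0.114 and 0.101), with log2 fold changes between 1.67 and 1.90 in those 4 fits, each of which called 0 genes. Leaving out only the first technical replicate of 25 mM replicate 2 also lost the call (edgeR FDR 0.129).

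Cplx3 (ENSMUSG00000039714, chr9:57599992-57606281, minus strand), a complexin of ribbon synapses that is also found in many amacrine cells, was estimated in the other direction. It had 108, 186 and 151 CPM at 5 mM and 121, 74.7 and 110 CPM at 25 mM glucose, so that 25 mM replicates 1 and 3 exceeded the lowest replicate at 5 mM. The means were 148 ± 38.9 and 102 ± 24.0 CPM (log2 fold change -0.54, SE 0.25, edgeR FDR 0.196). The batches differed in sign, with 0.11 in batch 1 and -1.12 in batch 2. Leaving out 5 mM replicate 1 gave -0.73, which passed the threshold (edgeR FDR 0.0449) in a fit that called 5845 of 21945 genes. Of 20 alternative fits, that was the only 1 to call Cplx3.

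The make-up of the complexin family differed between the concentrations when levels were compared per transcript length, as TPM (counts divided by transcript length and scaled to a common sum). Cplx4 made up 35.5%, 20.2% and 22.1% of the summed complexin TPM in the 3 replicates at 5 mM, and 66.8%, 68.3% and 59.4% at 25 mM. Cplx3 held 50.3% ± 7.45 of the family at 5 mM (SD, n = 3) and 25.3% ± 4.44 at 25 mM. At 5 mM, Cplx3 was the most abundant complexin in every replicate, and at 25 mM Cplx4 was. The complexins of conventional synapses held the rest: Cplx2 had 19.8% ± 1.27 at 5 mM and 7.80% ± 1.35 at 25 mM, and Cplx1 had 3.92% ± 0.215 and 2.09% ± 0.178. These shares are relative, so a larger share for 1 member lowers those of the others. In bulk tissue, fewer cells of a type and less RNA per cell cannot be told apart, here and for every gene below.

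**Figure D2:**
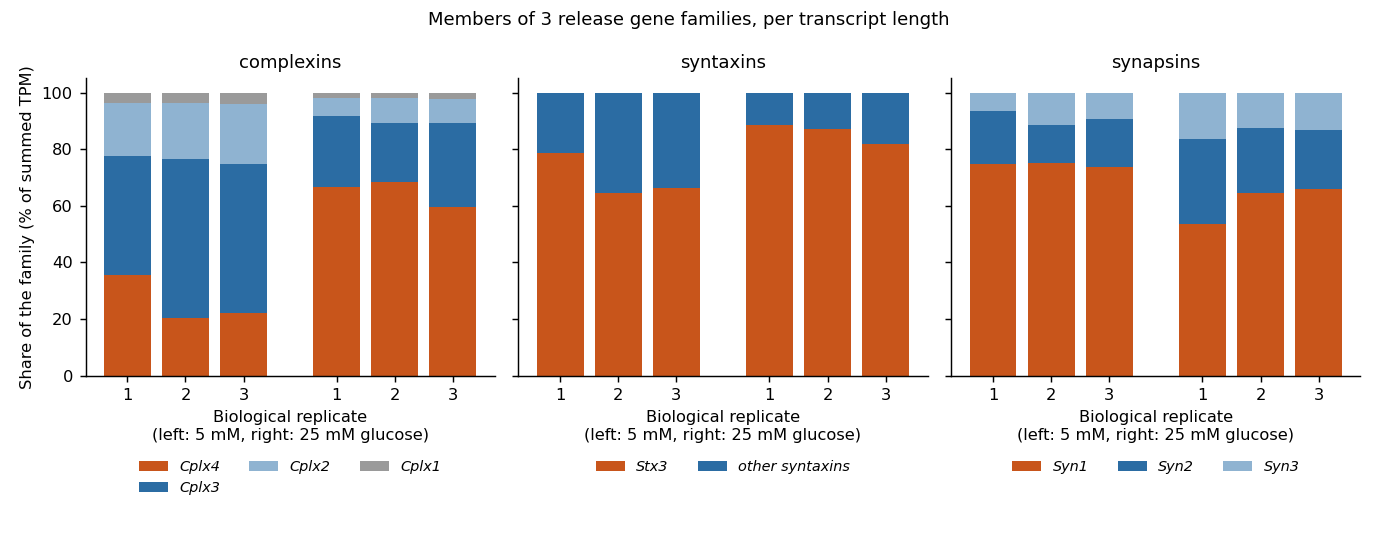
Share of each family's summed TPM (vertical axis, %) held by each complexin and synapsin gene, and by Stx3 and 4 other syntaxin genes together, in the 3 biological replicates at 5 mM glucose (left bars) and at 25 mM (right bars). The Cplx4 share is at most 35.5% at 5 mM and at least 59.4% at 25 mM, and the Stx3 share is at most 78.6% at 5 mM and at least 81.8% at 25 mM.

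Of the SNARE genes, Stx3 separated the concentrations without passing the threshold. Stx3 (ENSMUSG00000041488, chr19:11775118-11819403, minus strand) encodes the plasma membrane SNARE of ribbon synapses, which is also found in photoreceptor inner segments. Its levels were 396, 304 and 313 CPM at 5 mM and 678, 532 and 471 CPM at 25 mM glucose. All replicates at 25 mM were above all at 5 mM, although single libraries of the groups overlapped (238 to 476 CPM against 392 to 846). The means were 338 ± 50.8 and 560 ± 106 CPM, a 1.66-fold difference (log2 fold change 0.73, SE 0.21, edgeR FDR 0.0794). The difference was 1.10 in batch 1 and 0.47 in batch 2 on the log2 scale. It passed the threshold in batch 1 alone (edgeR FDR 0.0246), without 5 mM replicate 1 (0.0200), after the correction for GC content and length (0.0328) and by DESeq2 (FDR 0.0219). Within the syntaxin family, Stx3 held 69.8% ± 7.67 of the summed TPM at 5 mM and 85.9% ± 3.54 at 25 mM.

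Snap25 (ENSMUSG00000027273, chr2:136713453-136782428, plus strand), the membrane-bound SNARE that contributes a pair of helices to the complex at both kinds of synapse, varied more between replicates than between concentrations. It had 762, 475 and 496 CPM at 5 mM and 981, 786 and 527 CPM at 25 mM. The groups overlapped, since the lowest replicate at 25 mM lay below the highest at 5 mM (log2 fold change 0.40, SE 0.29, edgeR FDR 0.367). Batch 1 gave 0.90 and batch 2 gave -0.04. Vamp2 (ENSMUSG00000020894, chr11:69088490-69092384, plus strand), the vesicle SNARE, had the narrowest groups of the 3 SNARE genes, with 349, 341 and 372 CPM at 5 mM and 304, 274 and 310 CPM at 25 mM. Each replicate at 25 mM was below each at 5 mM, and the difference did not pass the threshold (log2 fold change -0.26, SE 0.16, edgeR FDR 0.296). The batches gave -0.32 and -0.26, and with the correction for GC content and length the estimate was 0.02. Vamp2 held 69.1% ± 0.542 of the summed TPM of Vamp1, Vamp2 and Vamp3 at 5 mM and 70.3% ± 2.70 at 25 mM.

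Both Snap25 and Stx3 have a pair of mutually exclusive coding exons of equal length, and the transcript table resolved them. The sequences are shown because the choice of exon changes the protein, which a count per gene cannot show. They are the sense strand of the GENCODE M21 transcripts, 5′ to 3′, with bases that differ between the exons of a pair in capitals. In Snap25, exon 5 of transcript Snap25-201 lies at chr2:136770057-136770174 and that of Snap25-202 at chr2:136769743-136769860. Both are 118 bases long and differ at 31 of them (73.7% identity).
Snap25-201 exon 5: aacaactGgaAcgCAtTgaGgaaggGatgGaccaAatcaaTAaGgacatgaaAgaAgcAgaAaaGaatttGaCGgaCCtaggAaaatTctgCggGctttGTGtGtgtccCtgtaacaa
Snap25-202 exon 5: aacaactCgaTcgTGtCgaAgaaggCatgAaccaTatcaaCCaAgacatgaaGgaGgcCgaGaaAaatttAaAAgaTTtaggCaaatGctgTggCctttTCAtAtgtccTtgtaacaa
In Stx3, exon 9 of Stx3-203 lies at chr19:11782800-11782910 and that of Stx3-202 at chr19:11783026-11783136, both on the minus strand and 111 bases long. They differ at 43 bases (61.3% identity), so this pair is the more divergent of the 2.
Stx3-203 exon 9: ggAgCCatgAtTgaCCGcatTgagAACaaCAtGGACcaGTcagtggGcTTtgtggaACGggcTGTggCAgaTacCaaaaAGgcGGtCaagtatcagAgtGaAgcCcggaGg
Stx3-202 exon 9: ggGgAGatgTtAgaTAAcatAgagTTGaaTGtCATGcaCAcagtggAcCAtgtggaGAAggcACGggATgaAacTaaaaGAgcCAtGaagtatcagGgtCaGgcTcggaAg

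Most RNA of both genes carried the same exon at both concentrations. Snap25-202 held 12.4%, 24.2% and 18.5% of the TPM of its pair at 5 mM and 12.1%, 15.2% and 18.4% at 25 mM, values that overlapped. Stx3-202 held 11.0%, 10.3% and 11.7% of its pair at 5 mM and 8.28%, 9.87% and 8.47% at 25 mM. All 3 shares at 25 mM were thus below all at 5 mM, a difference from 11.0% ± 0.656 to 8.87% ± 0.867 that was not tested. The level of Stx3-203 was 359, 256 and 263 CPM at 5 mM and 565, 458 and 406 CPM at 25 mM, and that of Stx3-202 was 51.4, 34.2 and 40.1 against 59.0, 57.9 and 43.5 CPM. Neither transcript passed the threshold over all transcripts (edgeR FDR 0.234 and 0.467), and the edgeR test called 0% of the 64990 transcripts tested (10668 had an unadjusted p under 0.05, and limma-voom called 0).

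Among the vesicle proteins, Syn1 fell. Syn1 (ENSMUSG00000037217, chrX:20860511-20921004, minus strand) encodes synapsin 1, which tethers vesicles in the reserve pool of conventional synapses. It had 37.5, 38.8 and 38.6 CPM at 5 mM glucose and 16.2, 21.7 and 19.2 CPM at 25 mM. The groups of 3 did not overlap, and the means were 38.3 ± 0.739 and 19.1 ± 2.75 CPM, or 2.01-fold higher at 5 mM (log2 fold change -1.01, SE 0.18, edgeR FDR 0.0426). The narrow spread of the sums at 5 mM hid a wide one between technical replicates, whose levels were 24.6 and 53.9 CPM in replicate 1, 48.6 and 25.7 in replicate 2, and 58.8 and 19.6 in replicate 3. Over single libraries the groups overlapped, with 19.6 to 58.8 CPM at 5 mM and 11.1 to 27.98 CPM at 25 mM. On the log2 scale, batch 1 gave -1.27 and batch 2 gave -0.82. The call was lost with the correction for GC content and length (-0.52, edgeR FDR 0.269), in batch 2 alone (0.477), and when any biological replicate except 5 mM replicate 1 was left out (edgeR FDR 0.0543 to 0.180). The log2 fold change in those 5 fits was -1.10 to -0.90, and 4 of them called 0 genes. Leaving out only 1 library also lost the call in both fits tried. Without the second technical replicate of 5 mM replicate 1 the edgeR FDR was 0.0596. Without the first of 25 mM replicate 2 it was 0.149. The study names Syn1 for these samples, so its direction here is not independent evidence.

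Other genes lie at the Syn1 locus. Araf, a kinase gene on the plus strand, overlaps 9 of 3299 exon bases of Syn1 (0.273%) and had 129, 138 and 131 CPM at 5 mM and 200, 164 and 146 CPM at 25 mM, each replicate at 25 mM being the higher (log2 fold change 0.36, edgeR FDR 0.200). Timp1, a metalloproteinase inhibitor gene inside an intron of Syn1, shares 0 exon bases with it and had a log2 fold change of -0.38 with overlapping groups. Whether counting used the strand is not given in the sources used here, and reads from the shared bases cannot be assigned to 1 gene with certainty. Transcript Syn1-201 held 92.9% of the Syn1 counts and had 38.3, 34.8 and 35.5 CPM at 5 mM and 14.1, 21.7 and 17.8 CPM at 25 mM.

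Syn2, Syp and Syt1 gave no difference beyond the spread of their replicates. Syn2 (ENSMUSG00000009394, chr6:115134902-115282006, plus strand), the second synapsin, was the least abundant of the 10 genes, with 8.69, 6.49 and 8.17 CPM at 5 mM and 8.55, 7.31 and 5.68 CPM at 25 mM (log2 fold change -0.12, SE 0.26, edgeR FDR 0.788). Its batches disagreed in sign, 0.35 against -0.76. Of its counts, 73.7% went to the noncoding processed transcript Syn2-206 and 23.4% to the coding Syn2-201, and Timp4 shares 90 of its exon bases (1.28%) on the other strand, with 1.79 ± 0.414 CPM at 5 mM and 1.15 ± 0.387 at 25 mM. Syn1 made up 74.8%, 75.1% and 73.8% of the synapsin TPM at 5 mM and 53.7%, 64.5% and 66.0% at 25 mM.

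Syp (ENSMUSG00000031144, chrX:7638471-7653256, plus strand), whose protein spans the membrane of nearly all synaptic vesicles, had 319, 348 and 315 CPM at 5 mM and 354, 236 and 289 CPM at 25 mM (log2 fold change -0.16, SE 0.19, edgeR FDR 0.590). The groups overlapped, because replicate 1 at 25 mM was the highest of all. An antisense gene, Gm14703, covers 875 of its exon bases (16.8%) at 0.149 to 0.506 CPM. Syt1 (ENSMUSG00000035864, chr10:108497650-109010982, minus strand), the calcium sensor for fast release, had 910, 648 and 628 CPM at 5 mM and 849, 680 and 590 CPM at 25 mM (log2 fold change -0.04, SE 0.23, edgeR FDR 0.915). Its replicate 1 was the highest at either concentration, and the groups covered nearly the same range.

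Slc17a7 (ENSMUSG00000070570, chr7:45163949-45176142, plus strand), the glutamate transporter of photoreceptor and bipolar cell vesicles, had 112, 159 and 134 CPM at 5 mM and 155, 102 and 137 CPM at 25 mM glucose. The groups overlapped almost fully (log2 fold change -0.04, SE 0.21, edgeR FDR 0.919), and the estimate was 0.24 in batch 1, -0.26 in batch 2 and 0.41 with the correction for GC content and length (edgeR FDR 0.126). Its counts were divided unusually between transcripts. The retained-intron transcript Slc17a7-204 took 64.8% of them and the full coding transcript Slc17a7-201 took 27.2%. The first had 85.2, 90.5 and 81.0 CPM at 5 mM and 94.6, 73.1 and 95.8 CPM at 25 mM. Slc17a7-201 had 27.7, 67.6 and 53.4 CPM at 5 mM against 31.4, 11.8 and 25.3 CPM at 25 mM, with a log2 fold change of -1.12 that did not pass the test (edgeR FDR 0.301) and groups that overlapped. Both transcripts share most of their exons, so the division of reads between them is an estimate. Slc17a7 held 61.4% ± 11.3 of the summed TPM of the 3 vesicular glutamate transporter genes at 5 mM and 58.5% ± 9.07 at 25 mM.

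Ordered per transcript length at 5 mM glucose, the mean TPM levels were Snap25 with 553 ± 134, Vamp2 with 315 ± 16.3, Syt1 with 293 ± 52.7, Stx3 with 273 ± 31.9, Syp with 257 ± 23.1, Cplx3 with 127 ± 38.1, Slc17a7 with 93.5 ± 19.9, Cplx4 with 62.5 ± 10.7, Syn1 with 22.5 ± 1.30 and Syn2 with 4.88 ± 0.567 (SD, n = 3). Neighbours from Vamp2 to Syp, and Cplx3 and Slc17a7, differed by less than the larger SD of each pair. At 25 mM the order was Snap25 with 809 ± 284, Stx3 with 498 ± 127, Syt1 with 312 ± 79.7, Vamp2 with 291 ± 38.02, Syp with 251 ± 65.6, Cplx4 with 245 ± 67.6, Slc17a7 with 99.5 ± 27.9, Cplx3 with 95.8 ± 29.0, Syn1 with 12.04 ± 0.747 and Syn2 with 4.87 ± 1.22. There, neighbours from Syt1 to Cplx4, and Slc17a7 and Cplx3, differed by less than that SD. Stx3 moved from a place among Vamp2, Syt1 and Syp to one above them, and Cplx4 from below Slc17a7 and Cplx3 to beside Syp. The synapsins stood lowest at both concentrations.

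The transcripts of the 10 genes numbered 47 in the table, of which 37 passed the filter on low counts and 12 had an unadjusted p under 0.05. Over all 64990 transcripts tested, 10668 had an unadjusted p under 0.05 in the same edgeR test. Of the 37, 14 had groups of 3 that did not overlap, where 24.6% of all transcripts tested did. Retained-intron transcripts leaned upward at 25 mM glucose: 10 of the 12 tested had a positive log2 fold change, with a median of 0.80. The same lean was seen over all genes, with 64.8% of 15157 retained-intron transcripts positive and a median of 0.25. Coding transcripts leaned the other way, 8 of 20 being positive with a median of -0.18, against 36.5% and -0.24 over all 32114. The largest estimate among retained-intron transcripts, named after its values were seen, was that of Syt1-204, with 2.24, 1.06 and 1.61 CPM at 5 mM and 6.55, 7.59 and 6.51 CPM at 25 mM (log2 fold change 2.07, edgeR FDR 0.192). It held 0.56% of the Syt1 counts, while the coding Syt1-201 held 91.5% and had a log2 fold change of -0.16. A median over the transcripts of 10 genes is a description, since transcripts of 1 gene share reads.

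**Figure D3:**
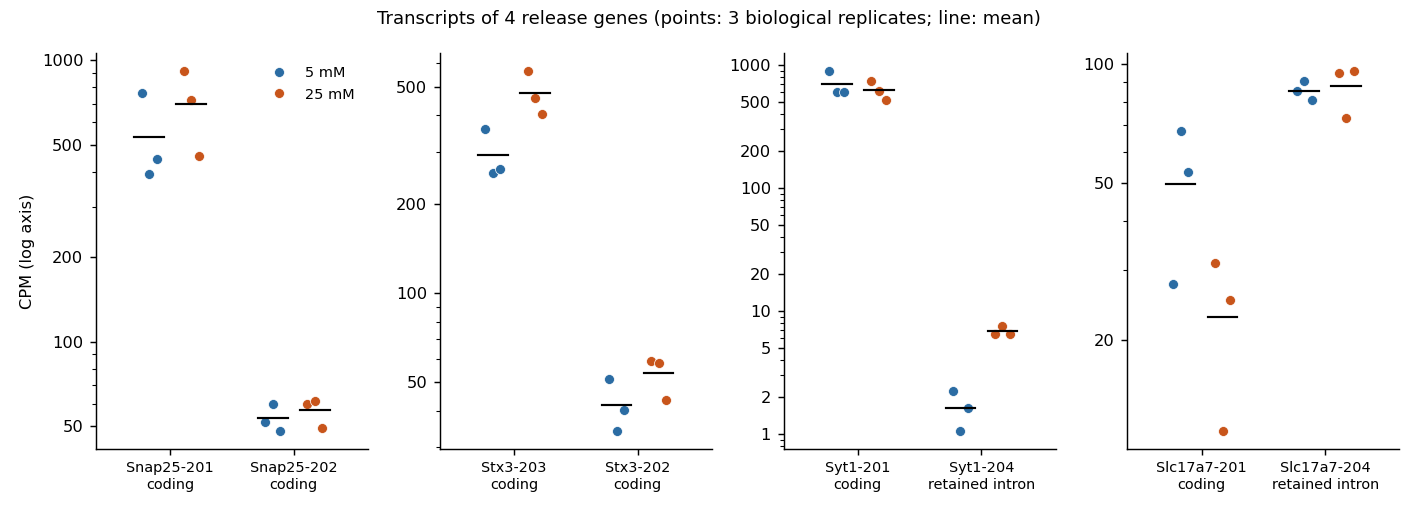
CPM on a log axis of 2 transcripts each of Snap25, Stx3, Syt1 and Slc17a7 in the 3 biological replicates at 5 mM (blue) and 25 mM glucose (orange), with group means as black lines. The Stx3-203 and Syt1-204 points at 25 mM all lie above those at 5 mM, whereas the groups of Snap25-201, Snap25-202 and Slc17a7-204 overlap.

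Estimates for the 10 genes moved with batch and with base composition. In batch 1, 8 of the 10 had a positive log2 fold change, and in batch 2 only Stx3 and Cplx4 did. Cplx4, Stx3, Syn1 and Vamp2 had the same sign in both batches. Over all genes, the log2 fold change fell with the GC content of the transcript (Spearman correlation -0.43 across 20307 genes, which are not independent replicates), and over the 10 genes the correlation was -0.70. Syn1 had the highest GC content of the 10 (57.6%), followed by Slc17a7 (56.6%) and Syp (56.4%), and Snap25 (44.0%), Cplx4 (44.8%), Syt1 (45.9%) and Stx3 (46.4%) had the lowest. The correction for GC content and length removes such a trend from each sample, so the correlation of -0.03 over all genes after it follows by construction. It cannot separate a technical trend from a glucose difference that follows GC content. After it, Stx3 and Cplx4 passed the threshold while Syn1 did not. The corrected fit called 2882 of 21061 genes, against 417 without the correction. That correction also changed the split of calls over all genes, 55.3% of its calls being higher at 25 mM in place of 74.1%.

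**Figure D4:**
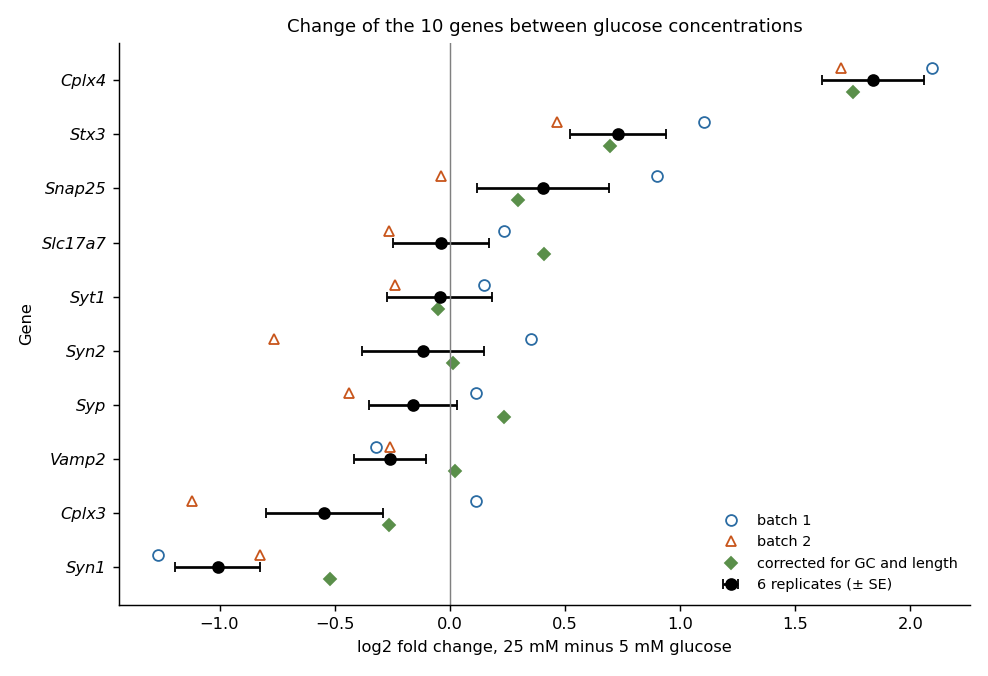
log2 fold change (25 mM minus 5 mM glucose, horizontal axis) of each of the 10 genes from the 6 biological replicates with its SE (black), from each batch alone (open circles and triangles) and after correction for GC content and length (green). Every estimate lies above 0 for Cplx4 and Stx3 and below 0 for Syn1, and the 4 estimates of Syp, Slc17a7, Cplx3 and Snap25 fall on both sides of 0.

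The rest of the release machinery was read from 6 lists with 99 genes, of which 98 were tested and Slc18a3 was not. The edgeR test called 1 of them, Cplx2, as lower at 25 mM. By estimate, 72 of the 98 were lower (73.5%, against 50.7% of all genes tested), with a median log2 fold change of -0.23. An unadjusted p under 0.05 was found for 28 (28.6%, against 28.7% of all genes), 24 of them lower and 4 higher, and groups of 3 did not overlap for 28 (28.6%, against 31.8%). The lists held a larger share of genes that were lower by estimate, but no larger share of separated genes, than all genes tested. They were chosen with earlier results of these data known, and their genes share the same samples, so these shares are a description. List medians moved with batch and base composition: that of SNAREs and their partners was -0.34, and -0.09 after the correction for GC content and length, whereas that of the proton pump was -0.23 and then -0.27.

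Of the vesicle proteins, 18 of 23 were lower by estimate and 0 were called. Their median log2 fold change was -0.17, but 0.13 in batch 1 and -0.59 in batch 2, and -0.04 after the correction for GC content and length. The lowest p-values belonged to Rph3a, the Rab3 effector rabphilin, with 50.7, 81.4 and 75.9 CPM at 5 mM and 27.9, 31.4 and 40.7 CPM at 25 mM (log2 fold change -1.06, edgeR FDR 0.0581), and to Sv2a, a glycoprotein of vesicles, with 105, 167 and 135 against 83.1, 57.1 and 67.3 CPM (log2 fold change -0.97, edgeR FDR 0.0607). In both, all replicates at 25 mM were below all at 5 mM. Syn3, the remaining synapsin, had 2.73, 5.16 and 4.47 against 4.27, 3.56 and 3.30 CPM with overlapping groups.

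Of the SNAREs and their partners, 13 of 19 were lower by estimate. Cplx2, the complexin of conventional synapses and the 1 gene called, had 107, 143 and 136 CPM at 5 mM and 67.0, 70.0 and 69.4 CPM at 25 mM (log2 fold change -0.90, SE 0.17, edgeR FDR 0.0429). It was not called with library totals for scaling (edgeR FDR 0.0529), in batch 2 alone (0.392), or when any biological replicate but the first at 5 mM was left out (log2 fold change -0.91 to -0.83, edgeR FDR 0.0550 to 0.187). Leaving out only the first technical replicate of 25 mM replicate 2 also lost the call (edgeR FDR 0.132). Stx1a, a syntaxin of conventional synapses, had 1.70, 7.38 and 6.36 against 2.36, 0.712 and 2.92 CPM (log2 fold change -1.36, edgeR FDR 0.197), and Cplx1 had 9.65, 12.4 and 11.9 against 9.51, 7.06 and 8.39 CPM (edgeR FDR 0.250). Vamp1, the paralog of Vamp2, had a log2 fold change of 0.03 (edgeR FDR 0.939).

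Priming and docking proteins, which build the active zone, were split, with 9 of 16 higher by estimate and a median of 0.10 (batch 1 gave 0.51, batch 2 -0.24). Doc2b, a calcium-binding priming factor, had 4.91, 8.62 and 7.66 CPM at 5 mM and 21.3, 12.5 and 16.1 CPM at 25 mM (log2 fold change 1.23, edgeR FDR 0.0680). Rims2, the RIM scaffold of ribbon synapses, had 125, 78.5 and 78.0 against 184, 156 and 149 CPM (log2 fold change 0.79, edgeR FDR 0.0787). Neither passed the threshold, and in both the replicates at 25 mM lay above those at 5 mM.

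Among the other vesicular transporters, 4 of the 6 tested were lower by estimate. Slc32a1, the transporter of inhibitory transmitters in amacrine and horizontal cells, had 2.28, 6.49 and 4.34 CPM at 5 mM and 1.72, 1.18 and 1.38 CPM at 25 mM (log2 fold change -1.61, edgeR FDR 0.0697), and Slc17a8 (VGLUT3) had 88.3, 78.5 and 105 against 38.8, 76.9 and 78.8 CPM (edgeR FDR 0.277). Slc17a6 (VGLUT2), the transporter of ganglion cells, had 69.2, 6.00 and 2.60 against 82.0, 75.2 and 29.1 CPM (log2 fold change 1.26, SE 1.03, edgeR FDR 0.436). The 2 technical replicates of 5 mM replicate 1 held 3.46 and 158 CPM of Slc17a6, so its value there came mostly from 1 library.

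Vesicle retrieval by clathrin and dynamin had 16 of 20 genes lower by estimate, with a median of -0.32 (-0.06 after the correction for GC content and length), and the vesicle proton pump had 14 of 14, with a median of -0.23. No gene of either list was called. Ap2a1, an adaptor subunit, had 28.4, 39.6 and 33.2 CPM at 5 mM against 20.8, 20.3 and 23.1 CPM at 25 mM (log2 fold change -0.66, edgeR FDR 0.0855), and Cltb, a clathrin light chain, had 84.4, 134 and 110 against 73.2, 61.4 and 72.9 CPM (-0.66, edgeR FDR 0.0901). The pump's proteolipid Atp6v0c had 113, 227 and 188 against 92.5, 73.7 and 119 CPM (-0.89, edgeR FDR 0.0971), and Atp6v0d1 101, 139 and 142 against 79.5, 72.9 and 102 CPM (-0.59, edgeR FDR 0.113). The groups of both pump genes overlapped.

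**Figure D5:**
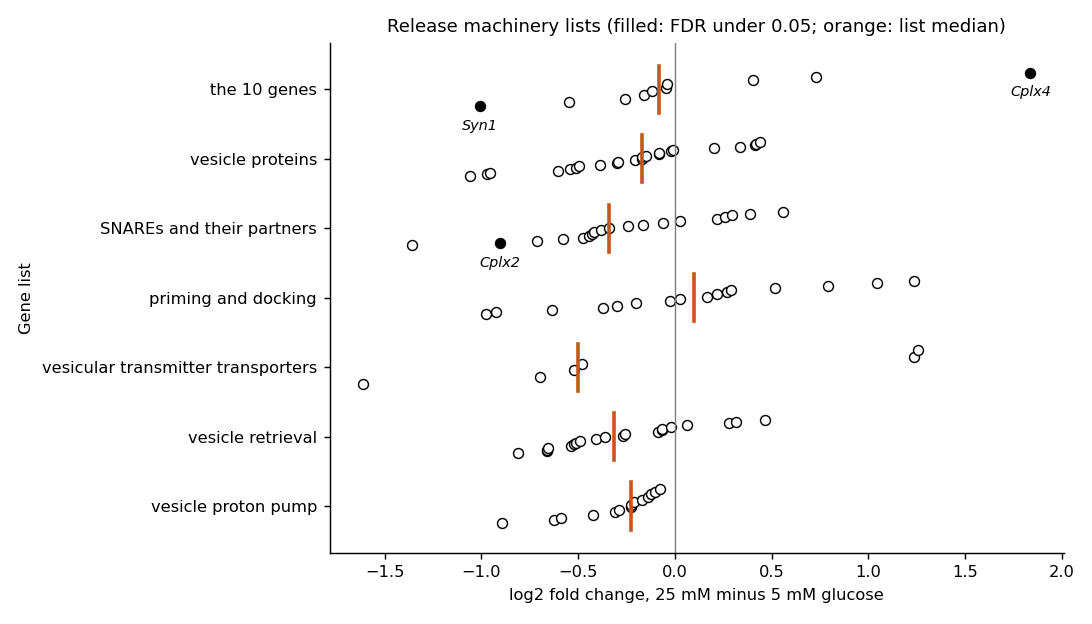
log2 fold change (25 mM minus 5 mM glucose, horizontal axis) of the 10 genes and of the tested genes of 6 release machinery lists, with filled points for an FDR under 0.05 in edgeR and orange lines for list medians. Cplx4, Syn1 and Cplx2 are the filled points, and all 14 proton pump genes lie below 0.

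Markers of rods, and in part those of cones, were higher at 25 mM glucose. Summed markers of amacrine cells, Mueller glia, microglia, vascular cells and pigment epithelium were lower. The part of any of these markers in the results was not tested. Rod markers were higher at 25 mM for 9 of 9 genes by estimate, 5 of them called, with a median log2 fold change of 1.06 and a summed level of 2782 to 5364 CPM at 5 mM against 6016 to 8278 CPM at 25 mM. Cone markers were higher for 6 of 8, with 1 called, and their sum was 52.9 to 65.4 CPM against 85.4 to 109 CPM. Bipolar markers showed no common direction, 5 of 10 being higher with a median of 0.02, and the batches gave medians of 0.83 and -0.47. Amacrine markers had 0 of 9 called and a median of -0.01, although their sum was lower at 25 mM (576 to 660 CPM against 352 to 526 CPM). Ganglion cell markers had 0 of 8 called and sums of 211 to 297 against 222 to 256 CPM. Horizontal cell markers had 0 of 4 called. None of these markers was at 0 in every sample.

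The genes whose log2 CPM followed that of a release gene most closely over the 12 libraries were ranked among 18254 genes, as a description, since the 12 libraries are 6 pairs of technical replicates and share the difference between concentrations. For Syn1 they were Pde4d, a cAMP phosphodiesterase gene (Pearson r 0.946), Spock1, a proteoglycan gene (0.934), and Sobp (0.934). For Stx3 they were Cacnb2, a calcium channel beta subunit gene of photoreceptor synapses (0.990), Dgke, a diacylglycerol kinase gene (0.990), and Fyco1 (0.989). Cplx4, ranked in the same way after its values were seen, was followed most closely by Arl6, a ciliary GTPase gene (0.995), Smug1, a DNA repair gene (0.995), and Grk1, a kinase gene of photoreceptors (0.994). Among the 10 genes themselves, the highest r was 0.936, for Stx3 and Cplx4. Next came Snap25 and Stx3 (0.842), Syp and Slc17a7 (0.795), Snap25 and Syt1 (0.770), and Syn1 and Vamp2 (0.744). The lowest were those of Syn1 and Stx3 (-0.75) and of Syn1 and Cplx4 (-0.75).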

How the data were processed

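RNA-seq libraries were made by the authors from total RNA of retinal explants with a stranded low-input kit. The authors deposited estimated counts (expected counts) per gene and per transcript, unnormalized and with technical replicates apart, on GRCm38. Of the nonzero gene values, 99.96% were not whole (tolerance 1e-06). The counting program and its use of strand are not given in the sources used here. A total of 0 columns were left unused.

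Technical replicates were summed and rounded to whole numbers, giving 3 samples per glucose concentration. Gene symbols, exons, lengths and GC content came from GENCODE M21, which named 90.8% of gene identifiers. Its transcripts matched 92.0% of the transcript table. Counts were filtered by filterByExpr, scaled by TMM and compared by the quasi-likelihood test of edgeR 4.0.16 (R 4.3.3), with glucose as the only term. P-values were adjusted by Benjamini-Hochberg over all genes, or all transcripts, that were tested (FDR). The biological coefficient of variation was 0.297. Library sizes for CPM were scaled by TMM, and a prior count of 2 was added for log2 CPM. TPM came from transcript counts divided by transcript length. DESeq2 1.42.0 and limma 3.58.1 (voom) were alternatives, beside other scalings, filters, single batches, a spline on GC content and length, and leaving out each sample. Tables and plots used Python 3.11.15. The procedure was also run on simulated counts, which had a fixed dispersion and no GC trend, batch or difference in sample quality. That run does not show how the test behaves where those features are present, as in these libraries.

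Values of a few genes were left out. The 10 genes and all lists were chosen with earlier results of these data known. Genes named beside the 10 were, in each release list, those called or otherwise the 2 with the lowest p, the direct paralogs, genes overlapping a member, the 3 most like Syn1 and Stx3, and transcripts with at least 5% of a member's counts. Library totals of 14815285 to 36692484 limit counting error only, since amplified reads are not independent molecules.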

Additional observations from a re-analysis of the deposited data

Results flagged for a closer look

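The 6 libraries at each concentration gave 20 groups (the 10 genes at either concentration). Each was examined for a library whose gap to its nearest neighbour was large for the group's range (Dixon's criterion). Such a library was found in 3 groups, where chance alone flags about 1 in 20 if values are independent. They are not independent here, since the libraries are pairs of technical replicates and the groups share libraries. Vamp2 had 214 CPM in the first technical replicate of 25 mM replicate 2, while the other 5 libraries lay between 301 and 320 CPM. Syt1 had 1224 CPM in the second technical replicate of 5 mM replicate 1, the next highest having 747 CPM. Cplx4 had 97.8 CPM in that same library, the next highest at 5 mM having 62.8 CPM and the lowest library at 25 mM 124 CPM. Without that library, the log2 fold change of Cplx4 was 1.98 (edgeR FDR 0.00786) and that of Syt1 was 0.12, in a fit that called 1722 of 20935 genes. Without the first technical replicate of 25 mM replicate 2, the log2 fold change of Vamp2 was -0.17 (edgeR FDR 0.556). That of Cplx4 was 1.67 there (edgeR FDR 0.129), in a fit that called 0 of 20901 genes.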

How the results depend on the processing

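Across 20 alternatives, 2 of them added after seeing the data, Cplx4 was positive in all and called in 14 (log2 fold change 1.67 to 2.09), Stx3 was positive in all and called in 7 (0.47 to 1.10), and Syn1 was negative in all and called in 10 (-1.27 to -0.50). Each of the other 7 changed sign at least once, and the cause was not tested. The fit with 12 libraries, 1 of the 20, took technical replicates of a biological replicate as separate samples. Its calls, which include Cplx4, Stx3 and Syn1, therefore overstate the replication. The number of genes called at an FDR under 0.05, 417 by edgeR, was 1979 without a filter on low counts, 3489 by DESeq2, 2882 with GC content and length, 2918 with 12 libraries, 3279 in batch 1, 0 in batch 2, 1722 without the second technical replicate of 5 mM replicate 1 and 0 without the first of 25 mM replicate 2 (both added), and 0 to 5845 when 1 sample was left out, the 5845 being without 5 mM replicate 1 and 494 without 25 mM replicate 3. At an FDR under 0.01 with a fold over 2 the counts were 275, 1387, 185, 109, 367, 0, 56 and 0 in the same order, and 0 to 108 with 1 sample left out. Of the 10 genes, 0 to 4 were called with 1 sample left out, 0 in batch 2 and 0 without that library of 25 mM replicate 2. Other release genes called, 1 by edgeR, numbered 0 with library totals, 6, 11, 14, 15, 14, 0, 5 and 0 in the order above, and 0 to 30 with 1 sample left out. Same-numbered replicates deviated from their group means with correlations of -0.01, -0.45 and 0.28, and not every sample correlated best with its own number. With 3 replicates per group, these correlations cannot show whether same-numbered replicates share an animal or a day. The labels give them only a shared number. With the replicate block, 990 genes were called, 2 other release genes, and Syn1 and Cplx4 among the 10. With block, GC content and length together the counts were 3246 genes (636 strict) and 16 release genes. Signs changed for Syn2 (0.015 with GC content and length, 0.00088 with block added, 0.35 in batch 1, 0.064 without the 5 mM library, and -0.25 to 0.023 with 1 sample left out), for Syp (0.24, 0.27, 0.12 and 0.0013 in the first 4 of these), for Vamp2 (0.021 and 0.038 in the first 2), for Snap25 (-0.037 in batch 2) and for Cplx3 (0.11 in batch 1). Syt1 was positive with library totals (0.026), in batch 1 (0.15) and without the 5 mM library (0.12), and spanned -0.19 to 0.15 with 1 sample left out. Slc17a7 was positive with library totals (0.019), GC content and length (0.41), block added (0.42, edgeR FDR 0.0456), 12 libraries (0.0026), batch 1 (0.24) and without the 5 mM library (0.078), and spanned -0.17 to 0.12 with 1 sample left out.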

Other observations

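Non-neuronal cells were read from the same fit. Markers of microglia were lower at 25 mM glucose by estimate for 6 of 6 genes (median log2 fold change -0.94) and markers of vascular cells for 6 of 7 (median -1.94), but 0 of either list were called by edgeR (3 and 5 had an unadjusted p under 0.05), and the vascular median was -2.99 in batch 1 and -0.58 in batch 2. Mueller glia markers had 3 of 7 higher, 0 called and 3 with an unadjusted p under 0.05. Of the 7 pigment epithelium markers, 4 were tested and 0 called, with 1 at an unadjusted p under 0.05. Summed levels did not overlap between the concentrations in these lists. Microglia markers summed to 116 to 181 CPM at 5 mM against 47.2 to 111 CPM at 25 mM. Vascular markers had 1092 to 1849 against 594 to 1000 CPM, and Mueller glia markers 2805 to 4003 against 1770 to 2712 CPM. Pigment epithelium markers had 5.46 to 5.70 against 3.04 to 4.54 CPM. Within the amacrine list, which had 4 of 9 genes higher by estimate and a median of -0.01 (0.04 in batch 1, -0.52 in batch 2 and 0.09 after the correction for GC content and length), Gad1 and Gad2, whose proteins make GABA, had log2 fold changes of -0.92 and -0.96 (edgeR FDR 0.0522 and 0.0562), with groups of 3 that did not overlap in either. Both genes were named after their values were seen.

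Slc17a6 differed widely within biological replicates. Its levels in the first and second technical replicate at 5 mM were 3.46 and 158 CPM in replicate 1, 5.86 and 6.14 in replicate 2 and 3.97 and 1.30 in replicate 3. At 25 mM they were 112 and 55.7 CPM in replicate 1, 109 and 58.2 in replicate 2 and 55.9 and 5.44 in replicate 3. In batch 1 the 3 libraries at 25 mM were all above those at 5 mM, and in batch 2 the groups overlapped.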
